A study of Mus musculus with 12 samples.

Results

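Laminin and integrin genes were examined in RNA-Seq data from whole mouse retina at day 28. The members were the 11 laminin chain genes, 17 integrin alpha genes and 8 integrin beta genes of the count table, chosen by gene symbol with Itgax left out, which made 36 of 50559 genes. The retinas came from C57BL6/J wild-type mice in 4 groups of 3 libraries each. IgG and IgG+Mino mice received 30 µg of rat control IgG on day 1, and APB5 and APB5+Mino mice received 30 µg of the rat antibody clone APB5, which binds mouse PDGFRβ and blocks the signal that recruits pericytes to vessels. In IgG+Mino and APB5+Mino mice, minocycline was injected intraperitoneally each day from day 5 to day 27 at 45 mg/kg. Every mouse had thus received an antibody, and no group was left uninjected. The antibody is systemic, and the whole retina mixes neurons, glia, vessels and immune cells. The study counts mice as replicates in each group, and P values measure the spread between these libraries.

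Laminins are trimers of an alpha, a beta and a gamma chain that polymerize into the scaffold of basement membranes. In the retina they lie around every vessel, in the inner limiting membrane under the Müller glial endfeet and in the matrix around photoreceptors. Integrins are pairs of an alpha and a beta subunit that span the plasma membrane and link matrix or other cells to the cytoskeleton. Some pairs bind laminin and hold endothelial cells, pericytes and glia to the vessel wall, whereas others occur on leukocytes and microglia and bind complement fragments or adhesion molecules of the endothelium.

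Values are CPM, the counts of a gene scaled to a common library total with TMM factors, from 52740545 to 59411044 counts per library. The members held between 18084 and 21700 counts in 11 libraries, which was 0.0322% to 0.0406% of all counts. In APB5 replicate 3 they held 52016 counts (0.0884%). This library also stood apart over all genes, with a score of 126.6 on the first principal component against −53.8 to 25.6. Of the 36 members, 28 (77.8%) had their highest level there, as did 24.7% of the 15812 genes with a mean above 1 CPM. Markers of other cell types moved in the same library. The summed level of 14 microglia and macrophage markers was 588.2 CPM against 37.1 to 114.7 CPM elsewhere (13 of 14 highest there), that of 8 pigment epithelium and melanocyte markers 785.2 CPM against 43.7 to 159.4 CPM (8 of 8), and that of 10 pericyte and smooth muscle markers 486.2 CPM against 80.5 to 142.6 CPM (8 of 10). Rod markers, which define most of the retina's cells, summed to 11288 CPM in that library and to 43693 to 66642 CPM in the other 11. The part of these cell types in the members' levels was not tested, and in bulk RNA fewer cells of a type and less RNA per cell cannot be told apart. Xist, the RNA of the inactive X chromosome, was at 815 to 2660 CPM in 5 libraries, namely all 3 of IgG, replicate 3 of APB5 and replicate 3 of APB5+Mino, and at 0.0904 to 0.680 CPM in the other 7. The Y chromosome genes Ddx3y, Uty, Kdm5d and Eif2s3y summed to 0.0173 to 0.0896 CPM in the 5 and to 169 to 262 CPM in the 7. This is the pattern of female and male mice, although the labels give no sex per mouse. IgG and IgG+Mino therefore differed fully in Xist and in sex read from these genes. So did IgG and the APB5 libraries other than replicate 3. Lens markers (7 genes) summed to 4.24 to 1919 CPM, with the highest sums in IgG+Mino replicate 3 and, at 718.2 CPM, in IgG replicate 1, and their part in the members' levels was not tested either. For most named members, log2 fold changes that use APB5 replicate 3 are given with and without it. Other such values, among them some of genes related to the members, are given with it only.

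**Figure D1:**
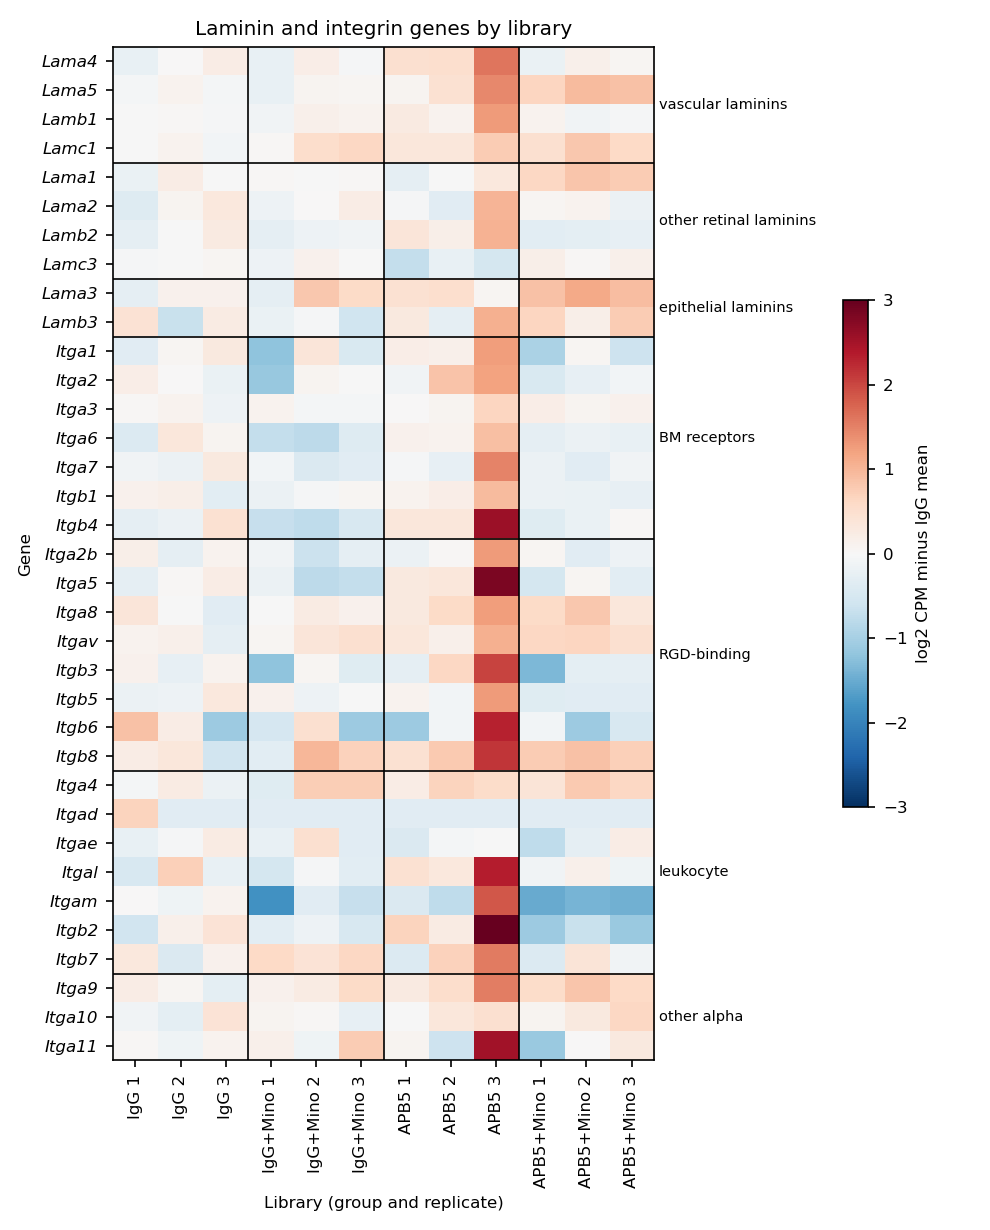
Level of 35 members (rows, grouped by role) in each of the 12 libraries (columns), as log2 CPM minus the mean of the 3 IgG libraries on a colour scale from −3 to 3. The column of APB5 replicate 3 is the highest for 27 of those drawn.

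In IgG retinas the members spanned a wide range of levels. Levels per kilobase of merged exons, on which genes can be compared, were highest for Itgb1, the beta subunit shared by most laminin and collagen receptors, at 9.84 ± 1.76 CPM per kb (mean ± SD, n = 3 libraries, as for all values below). Itgb5, a partner of Itgav in vitronectin receptors, followed with 7.32 ± 1.51 CPM per kb, then Itga3, a laminin receptor subunit, with 4.90 ± 0.462 and Lamb2, the beta chain typical of the retina and of synapses, with 3.61 ± 0.670. Itgb1 and Itgb5 overlapped between libraries, so their order was not resolved. Lamc1 and Lama5, the gamma and alpha chains of the main laminin of mature vessels, were at 2.11 ± 0.150 and 2.09 ± 0.146 CPM per kb and overlapped as well. Itga6, the laminin receptor subunit of endothelial cells and glia, was at 0.685 ± 0.173 and Lama1, a chain of the inner limiting membrane, at 0.728 ± 0.107 CPM per kb. The leukocyte subunits Itgam, Itgb2 and Itgal lay below these named members, with 0.304 ± 0.0253, 0.197 ± 0.0669 and 0.0539 ± 0.0273 CPM per kb. Itga4, also in the leukocyte list, was higher at 0.402 ± 0.0629 CPM per kb. The vascular chain Lama4 (0.148) and the receptor subunits Itga2 (0.113), Itgb4 (0.0940) and Itga1 (0.0604) had lower means than Itgb2. Without the length correction, 9 members had a mean of at least 10 CPM in IgG, 15 lay between 1 and 10 CPM and 12 below 1 CPM.

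**Figure D2:**
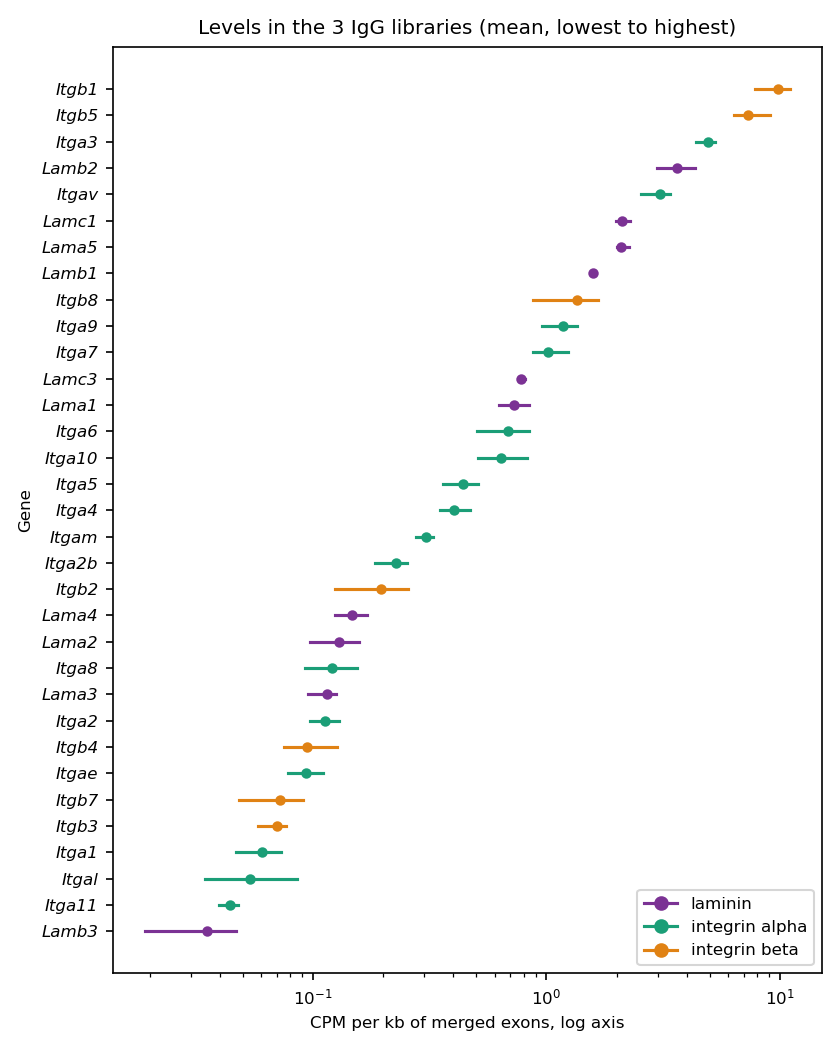
Mean level in the 3 IgG libraries in CPM per kb of merged exons (log axis), with a line from the lowest to the highest library, for 33 members with a count in each IgG library. Itgb1 and Itgb5 lie at the top. The laminin chains spread from Lamb2 at 3.61 to Lamb3 at 0.0353 CPM per kb. Itgam, Itgb2 and Itgal lie between these 2 chains, at 0.304, 0.197 and 0.0539 CPM per kb.

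The rarest members were close to the limit of the depth. Itgad, a leukocyte alpha subunit, had 2 counts in IgG replicate 1 and 0 counts in the other 11 libraries, where 3 counts correspond to 0.0448 to 0.0587 CPM. Itgb6, an epithelial subunit, had 0 to 6 counts in 11 libraries and 23 in APB5 replicate 3. Both fell below the count filter of each comparison, so 34 members were tested. Counts of the leukocyte subunits were also small outside APB5 replicate 3, at 23 to 97 for Itgam, 14 to 55 for Itgb2 and 12 to 32 for Itgal. On the GRCm39 annotation, the exons of 21 members overlapped a gene on the opposite strand, among them Lama4, Lama5, Lamb1 and Itga6, and those of 5 members one on the same strand. Whether the counting used the strand is not given in the sources used here, so these members and their antisense partners may share reads. Lama1, Lamb2, Lamc1, Itgb1, Itgb8 and Itgal had no such overlap and shared no stretch of 50 bases with another gene.

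Promoters are shown for 3 members that the comparisons below turn on. They are the 250 bases upstream of the start, 5′ to 3′, from the RefSeq table of build GRCm38.p6, which had an entry for 22 of the 36 members and none for Itgb2 or Lama1. Capitals mark the letters GAGGAA or TTCCTC (a core of the motif of PU.1, a myeloid transcription factor) and GGGCGG or CCGCCC (GC box), on either strand. The Itgam promoter lies at chr7:128062390-128062639 on the plus strand, that of Lamb2 at chr9:108479612-108479861 on the plus strand and that of Lama5 at chr2:180225860-180226109 on the minus strand.
Itgam: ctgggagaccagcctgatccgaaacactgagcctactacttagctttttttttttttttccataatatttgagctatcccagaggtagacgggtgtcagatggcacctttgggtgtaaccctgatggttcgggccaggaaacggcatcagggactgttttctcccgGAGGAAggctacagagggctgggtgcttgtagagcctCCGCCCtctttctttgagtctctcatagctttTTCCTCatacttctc
Lamb2: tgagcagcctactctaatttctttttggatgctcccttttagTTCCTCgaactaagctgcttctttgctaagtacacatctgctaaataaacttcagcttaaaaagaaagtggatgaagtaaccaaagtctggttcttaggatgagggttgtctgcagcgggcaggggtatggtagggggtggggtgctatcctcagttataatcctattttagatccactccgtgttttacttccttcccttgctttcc
Lama5: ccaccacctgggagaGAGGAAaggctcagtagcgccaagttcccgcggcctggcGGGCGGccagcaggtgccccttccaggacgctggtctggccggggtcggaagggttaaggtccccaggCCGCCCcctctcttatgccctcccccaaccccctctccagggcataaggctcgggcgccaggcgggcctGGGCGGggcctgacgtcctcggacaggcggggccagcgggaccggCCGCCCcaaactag
The PU.1 core letters stood at positions −84 and −15 from the start in Itgam, at −208 in Lamb2 and at −235 in Lama5. The GC box letters occurred 1 time in Itgam, 0 times in Lamb2 and 4 times in Lama5. Among the 22 promoters of members, 11 held the PU.1 core and 8 the GC box, against 23.3% and 32.7% of 32851 promoters of the table. A match describes letters and is not a binding site.

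APB5 was compared with IgG to ask what the antibody changed. The vessel wall laminin chains Lama4, Lamb1 and Lamc1 and the glial subunit Itgb8 lay higher in each APB5 library than in any IgG library. The leukocyte subunit Itgb2 was high in 1 APB5 library, and no member passed the test. IgG+Mino, without the blocking antibody, reached the APB5 range for Lamc1 (up to 37.0 CPM), Lamb1 (18.7 CPM) and Itgb8 (29.4 CPM). It did not for Lama4 (up to 2.66 CPM). APB5 replicates 1 and 2 also differed from IgG in Xist, so antibody and Xist cannot be told apart for them. Among 20350 genes tested, 0 genes (0%) and 0 members passed an adjusted P of 0.05, with or without a log2 fold change (log2FC) beyond 1 in either direction (quasi-likelihood test of edgeR, Benjamini-Hochberg adjusted, as for every adjusted P below unless another tool is named). DESeq2 and voom with quality weights also called 0 members, against 0.428% and 0.133% of genes. At an unadjusted P under 0.05, 8 of 34 members were higher and 0 lower, against 5.22% and 2.01% of all genes. All 8 had an adjusted P of 0.664. At an unadjusted P under 0.05, DESeq2 gave 13 members (8.51% of genes) and voom 5 (14% of genes). With the fold threshold added there were 3 members, Itga5, Itgb2 and Itgb8, against 3.67% of genes. In a fit of all 12 libraries that adjusts for Xist, 10 members were called, all higher in APB5, against 5.57% of genes. Among them were Lama4, Lama5, Itga5, Itga9, Itga11, Itgal, Itgb2, Itgb4 and Itgb8. Within groups, Xist differed widely only in APB5 and APB5+Mino, where replicate 3 alone was high. The adjustment thus rests mainly on these libraries, among them the outlying APB5 replicate 3, and cannot separate Xist from what sets that library apart. The 3 APB5 libraries all lay above the 3 IgG libraries for 7 members, against 7.79% of genes, and all below them for 1, Lamc3 (log2FC −0.46), against 7.89%.

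Of all members, the vascular laminin chain Lamc1 had the smallest P. Lamc1 (chr1:153094597-153208774, minus strand, coordinates of genes on GRCm39) had 23.7, 25.8 and 22.4 CPM in IgG and 30.1, 30.5 and 40.6 CPM in APB5. All 3 APB5 libraries lay above IgG, with a log2FC of 0.51 (SE 0.17, unadjusted P = 0.0172), or 0.34 without APB5 replicate 3. Lama4 (chr10:38841141-38998403), an alpha chain that endothelial cells make, had 1.96, 2.33 and 2.68 CPM in IgG and 3.24, 3.29 and 7.10 CPM in APB5, again without overlap. Its log2FC was 0.98 (SE 0.37, unadjusted P = 0.0302) and 0.49 without APB5 replicate 3. For Lama5 (chr2:179818166-179867712, minus strand) the values were 22.9, 25.9 and 23.1 CPM in IgG and 25.3, 32.7 and 65.0 CPM in APB5. The lowest APB5 library overlapped IgG, and the log2FC was 0.79 (unadjusted P = 0.0496), or 0.28 without APB5 replicate 3. Lamb1 (chr12:31315030-31379658), the beta chain of vascular laminins, had 16.9, 17.4 and 16.7 CPM in IgG and 20.6, 18.3 and 41.0 CPM in APB5, with a log2FC of 0.67, or 0.20 without APB5 replicate 3. These groups did not overlap, but APB5 replicates 1 and 2 lay close to IgG. Among chains of other retinal laminins, Lamb2 (chr9:108356935-108367729) had 18.1, 21.6 and 26.3 CPM in IgG and 27.96, 24.6 and 44.9 CPM in APB5, and Lama1 (chr17:68004223-68129642) 6.09, 8.16 and 6.98 CPM in IgG and 5.84, 6.99 and 8.80 CPM in APB5. Both overlapped between the groups, and their log2FC values were 0.58 and 0.04, or 0.26 and −0.14 without APB5 replicate 3.

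Among receptor subunits of vessels and glia, the groups overlapped for Itgb1, Itga6 and Itgb5 but not for Itgb8. Itgb1 (chr8:129411876-129460618) had 63.9, 65.7 and 46.6 CPM in IgG and 62.0, 66.2 and 111.4 CPM in APB5. Its log2FC of 0.46 was 0.13 without APB5 replicate 3. Itga6 (chr2:71575960-71689757) had 5.72, 9.63 and 8.03 CPM in IgG and 8.30, 8.14 and 14.4 CPM in APB5, a log2FC of 0.41 with overlapping groups, which was 0.08 without APB5 replicate 3. Itgb5 (chr16:33649988-33771137), which also serves the uptake of photoreceptor outer segments by the pigment epithelium, had 44.8, 46.2 and 64.0 CPM in IgG and 54.7, 47.9 and 124.1 CPM in APB5. Its log2FC was 0.57, and −0.01 without APB5 replicate 3. Itgb8 (chr12:119121748-119202584, minus strand), a partner of Itgav that releases active TGF-β and is made by glia, had 17.1, 18.7 and 9.86 CPM in IgG and 20.0, 25.3 and 65.3 CPM in APB5. Its groups did not overlap, with a log2FC of 1.29 (SE 0.48, unadjusted P = 0.0286) and 0.58 without APB5 replicate 3.

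Leukocyte integrins rested on APB5 replicate 3. Itgb2 (chr10:77366086-77401542), the beta subunit of the leukocyte integrins, had 0.402, 0.683 and 0.829 CPM in IgG and 0.994, 0.730 and 6.36 CPM in APB5. The second APB5 library lay within the range of IgG, with means of 0.638 ± 0.217 and 2.70 ± 3.18 CPM. The log2FC was 2.05 (SE 0.83, unadjusted P = 0.0403), or 0.42 without APB5 replicate 3. Itgam (chr7:127661808-127717753), which pairs with Itgb2 in the complement receptor of microglia, macrophages and neutrophils, had 1.57, 1.42 and 1.68 CPM in IgG and 1.14, 0.894 and 5.71 CPM in APB5, so that APB5 replicate 3 lay above and the other APB5 libraries below IgG. With all libraries its log2FC was 0.75. Without APB5 replicate 3 it was −0.59 (unadjusted P = 0.0498), in a fit where the groups also differed fully in Xist. Itgam shares 3402 of its 5361 stretches of 50 bases with the overlapping gene model Gm49368, so its counts are uncertain. Itgal (chr7:126895432-126934320), which pairs with Itgb2 on lymphocytes and binds ICAM molecules, had 0.227, 0.560 and 0.276 CPM in IgG and 0.470, 0.420 and 1.84 CPM in APB5, with overlapping groups and a log2FC of 1.31, or 0.30 without APB5 replicate 3.

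Over the 34 members tested, the median log2FC was 0.63, with 32 above 0, where the median of all genes was 0.00. Without APB5 replicate 3 it was 0.20, with 23 above 0. The medians were 0.62 for the 7 basement membrane receptors and 0.78 for the leukocyte integrins, and 0.13 and 0.25 without that library. Of the genes in lists related to the members, 0 passed in this comparison. The medians were 0.85 for 10 other basement membrane components such as nidogens and perlecan, 0.50 for 8 other laminin receptors, 1.17 for 15 integrin ligands and 0.23 for 21 integrin adaptors. Without APB5 replicate 3 they were 0.36, 0.21, 0.14 and 0.10. The smallest P among them belonged to Vwf, a clotting factor of endothelial cells that binds platelet integrins, with a log2FC of 1.20 (unadjusted P = 0.00168), and to Icam1, the endothelial ligand of Itgal and Itgam, with 2.12 (unadjusted P = 0.00403). Without APB5 replicate 3 these were 1.05 and 1.31. Both had an adjusted P of 0.664.

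APB5+Mino was compared with APB5 to ask what minocycline changed in antibody-treated retinas. Lamb2, Itgb1, Itgb5, Itgam and Itgb2 lay lower and Lama1 higher in each APB5+Mino library than in any APB5 library. With all libraries no member passed the test. Once APB5 replicate 3 was left out, these 6 were among 9 of 34 members that passed without a fold threshold. That share was close to the 26.6% of all genes that passed, so the members did not stand out by it. Over all members tested, 13 lay lower and 3 higher without overlap of libraries, against 4629 and 4765 of 20281 genes. Of 20281 genes tested, 1.66% passed both the P and the fold threshold and 4.82% passed the P alone, but 0 members did by either rule. At an unadjusted P under 0.05, 13 members were lower, against 19.2% of genes, and 3 were higher, against 16.7%. DESeq2 called 5 members with the fold threshold, all lower, against 7.55% of genes, and voom with quality weights called 2, Itgam and Itgb2, against 7.07%. The 5 were Itga5, Itgam, Itgb2, Itgb3 and Itgb4, and they were also the 5 called with all 12 libraries in one fit (7.65% of genes). Adjusting that fit for Xist gave 6, these and Itga2 (9.05% of genes). At an unadjusted P with the fold threshold there were 8 members, against 9.73% of genes, and with the replicate number as a block 0, as for all genes (0%). The members with the smallest P were Lamb2, Lama1 and Itgb2. This comparison and the previous one share the APB5 libraries, so a high APB5 library raises one fold change as it lowers the other.

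Lamb2 was lower in each APB5+Mino library, with 17.3, 17.8 and 18.5 CPM against 27.96, 24.6 and 44.9 CPM in APB5. Its log2FC was −0.88 (SE 0.23, adjusted P = 0.0593). Lama1 lay in the other direction, with 10.7, 12.4 and 11.9 CPM in APB5+Mino and 5.84, 6.99 and 8.80 CPM in APB5. The groups did not overlap, and the log2FC was 0.68 (SE 0.19, adjusted P = 0.0628). Each APB5+Mino library also lay above the highest of the other 9 libraries, since Lama1 reached at most 8.80 CPM there. Lama4 had 2.01, 2.58 and 2.41 CPM in APB5+Mino, all below APB5, with a log2FC of −0.97 (adjusted P = 0.103). For Lamb1 the APB5+Mino values were 18.1, 15.8 and 16.6 CPM, all below APB5, and the log2FC was −0.68. Lamc1, with 33.3, 42.1 and 36.3 CPM, and Lama5, with 37.6, 46.1 and 44.3 CPM, overlapped with APB5 and had log2FC values of 0.13 and 0.04.

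Among receptors, Itgb1 had 51.8, 50.6 and 49.2 CPM in APB5+Mino and Itgb5 39.6, 40.2 and 40.5 CPM, below every APB5 library. Their log2FC values were −0.68 (SE 0.23, adjusted P = 0.0911) and −0.93 (SE 0.36, adjusted P = 0.114). Itga6 was at 6.28, 6.73 and 6.54 CPM in APB5+Mino, also below APB5, with a log2FC of −0.67 (adjusted P = 0.109). Itgb8 had 24.7, 26.99 and 23.9 CPM and overlapped with APB5, with a log2FC of −0.57. Of the leukocyte subunits, Itgb2 had 0.268, 0.372 and 0.263 CPM in APB5+Mino against 0.730 to 6.36 CPM in APB5, and Itgam had 0.519, 0.568 and 0.545 CPM against 0.894 to 5.71 CPM. Neither overlapped between the groups, and the log2FC values were −3.05 (SE 0.86, adjusted P = 0.0659) and −2.20 (SE 0.72, adjusted P = 0.0841). Itgal, at 0.304, 0.372 and 0.301 CPM, lay below all APB5 libraries as well, with a log2FC of −1.42 (adjusted P = 0.137).

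**Figure D3:**
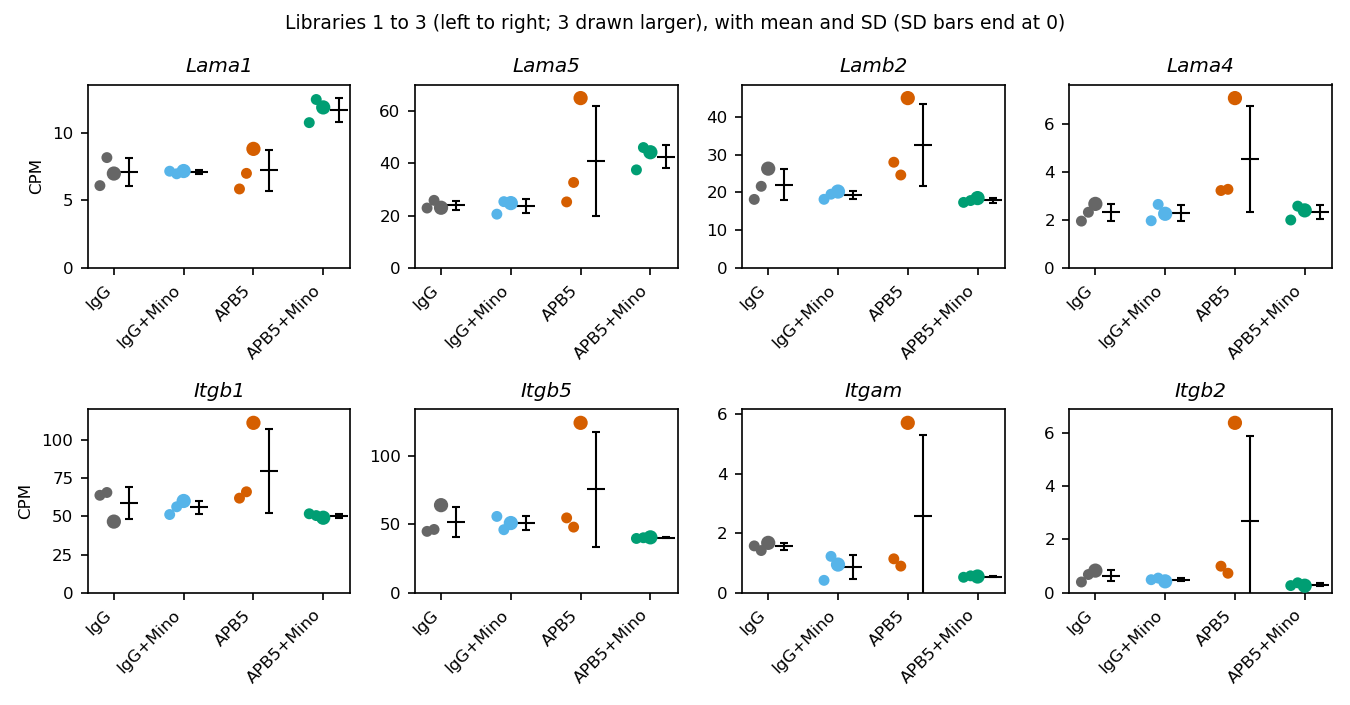
CPM of 8 members in every library of the 4 groups, each axis starting at 0. Points stand for replicates 1 to 3 from left to right with replicate 3 drawn larger, and the mark beside them gives the mean and SD, cut at 0. APB5 replicate 3 is the highest APB5 library in each panel, and the APB5+Mino points of Lama1 lie above all other libraries.

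Because APB5 replicate 3 widened the spread of the APB5 group, the same comparison was made without it, with APB5 then at 2 libraries. Of 20621 genes tested, 26.6% passed the P alone, and 9 members did, 4 higher and 5 lower, against 13.2% and 13.4% of genes. Lama1 rose by a log2FC of 0.86 (SE 0.13, adjusted P = 0.00406), Lama5 by 0.55 (adjusted P = 0.0179), Lamc3, the gamma chain of photoreceptor matrix laminins, by 0.56 (adjusted P = 0.0362) and Itgav, the alpha subunit of vitronectin receptors, by 0.32 (adjusted P = 0.0391). Lamb2 fell by 0.56 on the log2 scale (SE 0.10, adjusted P = 0.00604), Itgb1 fell by 0.35 (SE 0.08, adjusted P = 0.0151) and Itgb5 fell by 0.36 (SE 0.09, adjusted P = 0.0183). Of the leukocyte subunits, Itgb2 fell by 1.42 (SE 0.33, adjusted P = 0.0158) and Itgam fell by 0.86 (SE 0.27, adjusted P = 0.0446). For members that did not pass, Lama4 had −0.48, Lamb1 −0.21, Lamc1 0.29, Itga6 −0.34, Itgal −0.42 and Itgb8 0.15 on the log2 scale, so that Itgb8 changed sign. Itgb2 was the 1 member that also passed the fold threshold, as did 4.48% of genes. Without APB5 replicate 2 instead, Itgam, Itgb2 and Lamb2 were called as lower, with log2FC values of −2.61, −3.50 and −1.05 (8.59% of genes). Without both libraries high in Xist, Lama1 (0.84, adjusted P = 0.0274) and Lamb2 (−0.58, adjusted P = 0.0333) passed the P alone, as did 9.36% of genes, and Itgb2 had an adjusted P of 0.0625.

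**Figure D4:**
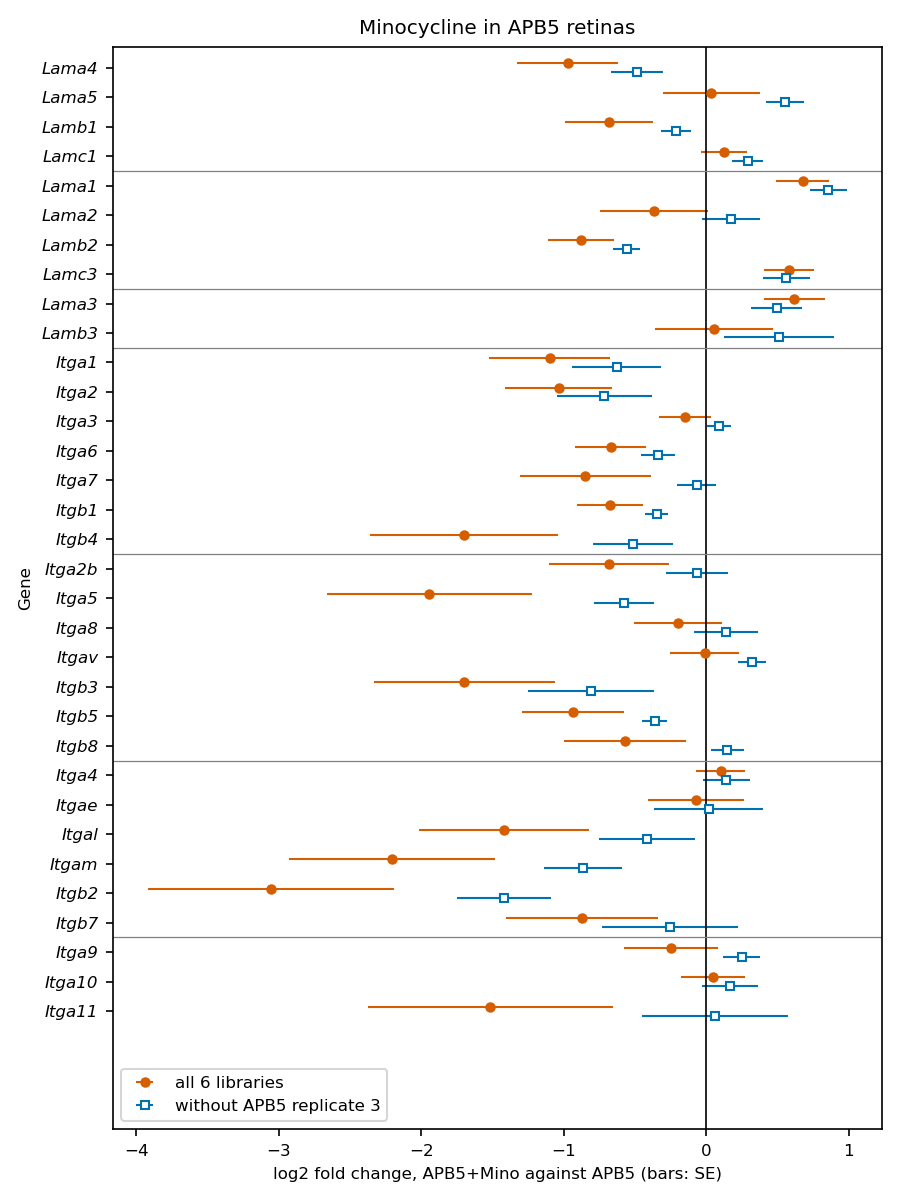
Log2FC of APB5+Mino against APB5 for 33 of the members tested, with bars for the SE, from all 6 libraries (filled circles) and without APB5 replicate 3 (open squares). Itgb2 moves from −3.05 to −1.42 and Lama1 from 0.68 to 0.86.

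The median log2FC of the members was −0.68 with all libraries, 26 of 34 being lower, and −0.02 without APB5 replicate 3. The median of all genes was −0.02 with all libraries. Basement membrane receptors had a median of −0.85 and leukocyte integrins of −1.15, or −0.35 and −0.33 without that library. Of the related lists, Vwf (−1.76) and Ccn1 (−3.01), a matricellular ligand of integrins, were downregulated in APB5+Mino, as was Fbln1, a fibulin of basement membranes (−1.47, adjusted P = 0.0430 for each). These were 2 of 15 ligands and 1 of 10 basement membrane components, against 166 of 20281 genes called as lower. Rap1b, a GTPase that activates integrins, passed the P alone (−0.55, adjusted P = 0.0476). Without APB5 replicate 3, 9 of the ligands, 4 of the basement membrane components and 6 of the 8 other laminin receptors were lower at an adjusted P of 0.05, and 0 were higher. Of all genes, 13.4% were lower and 13.2% higher by the same rule. Adaptors passed in both directions, 3 higher and 3 lower.

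IgG+Mino was compared with IgG for the effect of minocycline without the blocking antibody. Of 20143 genes, 0.0298% were called, and 0 members passed with or without the fold threshold. At an unadjusted P under 0.05 there were 3 members (8.37% of genes), each with an adjusted P of 0.585. Itga6 had 4.63, 4.43 and 5.85 CPM in IgG+Mino against 5.72, 9.63 and 8.03 CPM in IgG, with 1 library overlapping and a log2FC of −0.65 (SE 0.22, unadjusted P = 0.0158). Lamc1 had 24.4, 34.7 and 37.0 CPM in IgG+Mino against 22.4 to 25.8 CPM, which overlapped, with a log2FC of 0.42 (unadjusted P = 0.0328). Itgam was lower in each IgG+Mino library, with 0.416, 1.22 and 0.946 CPM against 1.42 to 1.68 CPM, and had a log2FC of −0.83 (SE 0.35, unadjusted P = 0.0424). Adjusting a fit of all 12 libraries for Xist turned it to 0.51. That adjustment rests mainly on replicate 3 of APB5 and of APB5+Mino, since Xist was high throughout IgG and low throughout IgG+Mino. Lama1 (7.15, 6.96 and 7.16 CPM in IgG+Mino), Lama5 (20.6, 25.4 and 24.8 CPM) and Itgb2 (0.489, 0.549 and 0.427 CPM) lay within or beside the IgG values, with log2FC values of 0.00, −0.02 and −0.36. Itgb7 alone was higher in all 3 IgG+Mino libraries, against 7.03% of genes, and Itgam and Itgb4 were lower, against 7.35%. Minocycline and sex, as read from Xist and the Y chromosome genes, cannot be told apart in this comparison.

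APB5+Mino was compared with IgG+Mino for the antibody effect under minocycline. Lama5, an alpha chain of vessel laminins, and Lama1, the alpha chain of the inner limiting membrane, were higher in APB5+Mino, and no integrin passed the test. Of 20049 genes, 1.23% were called with the fold threshold, and 0 members were. Without a fold threshold 8.09% of genes passed, 4.8% higher and 3.28% lower, and 2 of 34 members passed, Lama5 and Lama1, both higher. Lama5 had 20.6, 25.4 and 24.8 CPM in IgG+Mino and 37.6, 46.1 and 44.3 CPM in APB5+Mino. The groups, at 23.6 ± 2.62 and 42.6 ± 4.50 CPM, did not overlap, with a log2FC of 0.85 (SE 0.12, adjusted P = 0.0125). Lama1 had 7.15, 6.96 and 7.16 CPM in IgG+Mino and 10.7, 12.4 and 11.9 CPM in APB5+Mino (7.09 ± 0.115 and 11.7 ± 0.869 CPM), also apart, with a log2FC of 0.72 (SE 0.12, adjusted P = 0.0158). Both calls were lost without IgG+Mino replicate 3, without APB5+Mino replicate 2 and without APB5+Mino replicate 3, with adjusted P of 0.0674 to 0.102, while the log2FC values stayed at 0.77 to 0.94 for Lama5 and at 0.66 to 0.78 for Lama1 over all 6 libraries left out in turn. APB5+Mino replicate 3 is the 1 library of these 6 that is high in Xist, and without it the log2FC values were 0.83 and 0.71. With all 12 libraries in one fit the adjusted P was 0.164 and 0.100, and DESeq2 gave 1.56e-08 and 2.38e-06.

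No other member passed the test in this comparison. Itgb5 had 55.7, 46.0 and 50.9 CPM in IgG+Mino and 39.6, 40.2 and 40.5 CPM in APB5+Mino, a log2FC of −0.34 (SE 0.10, adjusted P = 0.0569). Itgb2 was below IgG+Mino in each APB5+Mino library, with a log2FC of −0.64 (adjusted P = 0.187), and Itgam overlapped, with −0.63 (adjusted P = 0.284). Itgb1, at 51.3, 56.4 and 60.2 CPM in IgG+Mino and 49.2 to 51.8 CPM in APB5+Mino, overlapped as well. Lamb1 (15.9, 18.7 and 18.4 CPM in IgG+Mino), Lamb2 (18.2, 19.5 and 20.2 CPM), Lama4 (1.97, 2.66 and 2.26 CPM), Itgb8 (11.71, 29.4 and 23.6 CPM) and Itgal (0.217, 0.319 and 0.260 CPM) all overlapped with APB5+Mino. Of all members, 8 lay higher in every APB5+Mino library, against 17.7% of genes, and 3 lower, against 17.6%. In the related lists Ccn1 (−2.53, adjusted P = 0.0162) and Ccn2 (−1.28, adjusted P = 0.0125), matricellular ligands of integrins, were downregulated. Spp1, the ligand osteopontin, and Vtn, vitronectin, also passed the P alone as lower, with log2FC values of −0.77 and −0.35. Agrn, a heparan sulfate proteoglycan of basement membranes, was higher by 0.47 (adjusted P = 0.0253) and the adaptor Bcar1 lower, at −0.43 (adjusted P = 0.0201).

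Whether minocycline acted differently with and without APB5 was tested by the interaction of antibody and minocycline in all 12 libraries. Of 21228 genes, 0.0141% were called, and 0 members passed an adjusted P of 0.05. At an unadjusted P under 0.05 there were 6 members, 2 higher and 4 lower, against 8.06% and 9.08% of genes. Adding the fold threshold left 1, Itgb2, against 7.1% of genes, and adjusting for Xist called 3, Itga11, Itgb2 and Itgb5, against 4.39%. The smallest P belonged to Itgb2, with an interaction of −2.68 on the log2 scale (SE 0.95, unadjusted P = 0.0151, adjusted P = 0.209), and to Lama1, with 0.69 (SE 0.25, unadjusted P = 0.0159, adjusted P = 0.212). Without APB5 replicate 3 Itgb2 had −1.07 and Lama1 0.84, and the adjusted P of Lama1, 0.104, was the smallest of the members. For both genes the difference between minocycline in APB5 and in IgG mice therefore did not pass the test.

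Basement membrane receptors were set against leukocyte integrins as summed levels. Whole retina does not show how far the RNA of these receptors came from vessels. In IgG, Itgb1 (58.8 CPM on average) and Itga3 (28.6 CPM) made up most of the receptors' mean sum of 106.3 CPM. The 7 basement membrane receptors summed to 93.6 to 116.1 CPM in IgG, 95.6 to 102.0 CPM in IgG+Mino, 110.2 to 202.5 CPM in APB5 and 96.4 to 99.98 CPM in APB5+Mino. The 7 leukocyte integrins summed to 9.41 to 11.3 CPM in IgG, 7.11 to 14.3 CPM in IgG+Mino, 10.99 to 24.98 CPM in APB5 and 10.3 to 13.6 CPM in APB5+Mino. Itga4, a receptor subunit for VCAM1 and fibronectin that is not limited to leukocytes, made up most of the second sum in 11 libraries, with 5.18 to 11.5 CPM, and 9.83 CPM of it in APB5 replicate 3. Its exons overlap Cerkl on the opposite strand. It shares 3435 of its 16961 stretches of 50 bases with that gene, so the counts of Itga4 and this sum are uncertain. As a percentage of the receptors, leukocyte integrins stood at 8.62, 9.69 and 10.2 in IgG, 7.44, 14.8 and 13.2 in IgG+Mino, 9.97, 11.8 and 12.3 in APB5 and 10.3, 14.1 and 12.7 in APB5+Mino. The groups overlapped, and APB5 replicate 3 was within the range of the other libraries on this percentage. Itga4 weighs most in it and was in that library 1.07 times the mean of APB5 replicates 1 and 2. This ratio was 1.18 for Itgae, 7.38 for Itgb2, 5.61 for Itgam, 4.13 for Itgal and 2.74 for Itgb7. Over the receptors it ran from 1.51 to 4.85, with 1.74 for Itgb1. The percentage therefore does not describe single leukocyte subunits.

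**Figure D5:**
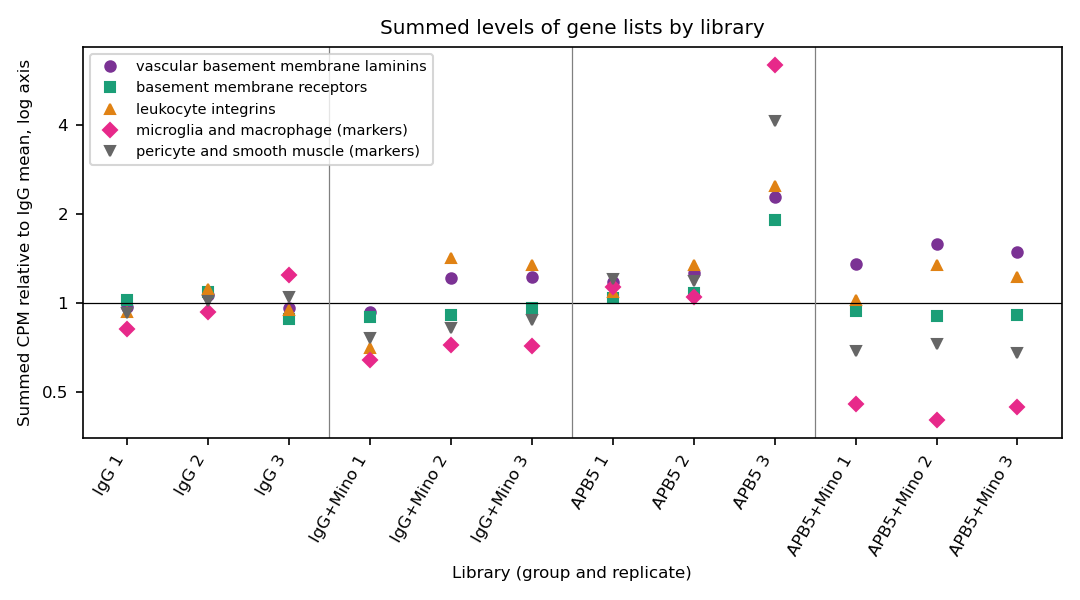
Summed CPM of vascular laminins, basement membrane receptors, leukocyte integrins and 2 marker lists (microglia and macrophage, pericyte and smooth muscle) in each library, relative to the mean of the 3 IgG libraries on a log axis. APB5 replicate 3 has the highest sum of each member list, with 202.5 CPM of basement membrane receptors and 24.98 CPM of leukocyte integrins.

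Levels of Itgb2 and Itgam were set beside those of microglia and macrophage markers. All 14 of these markers were lower in APB5+Mino than in APB5 without overlap of libraries, their sum being 37.1 to 42.1 CPM against 96.4 to 588.2 CPM, and none was at 0 in any library. Sums were 75.8 to 114.7 CPM in IgG and 59.3 to 66.7 CPM in IgG+Mino. Per 1000 CPM of this list, Itgb2 had 5.31, 7.90 and 7.22 CPM in IgG, 8.24, 8.22 and 6.45 in IgG+Mino, 9.51, 7.57 and 10.8 in APB5 and 6.38, 10.02 and 6.40 in APB5+Mino. On this scale APB5+Mino overlapped with APB5. Itgam per 1000 CPM of the list was at 20.8, 16.4 and 14.6 in IgG, 7.02, 18.3 and 14.3 in IgG+Mino, 10.9, 9.28 and 9.70 in APB5 and 12.3, 15.3 and 13.3 in APB5+Mino, so that APB5 lay below IgG and APB5+Mino. Neutrophil markers summed to 0.09 to 0.52 CPM in 11 libraries and to 3.26 CPM in APB5 replicate 3, and Camp, Elane, Ly6g, Mpo and S100a8 were at 0 in at least 1 library. T and NK cell markers summed to 0.58 to 1.10 CPM, and to 2.69 CPM in that library, with Cd3d, Cd3e and Cd3g at 0 in at least 1 library.

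Across the 12 libraries, the genes with log2 CPM most like Itgb2 were Cyba, C1qc, Pik3ap1, Laptm5 and Elk3, out of 15811 genes with a mean of at least 1 CPM. Their Pearson correlation with Itgb2 was 0.989, 0.986, 0.984, 0.983 and 0.982, and 0.958, 0.944, 0.930, 0.927 and 0.947 over the 11 libraries other than APB5 replicate 3. The points share libraries and the spread between groups, and no test was made.

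The ratio of APB5 replicate 3 to the mean of APB5 replicates 1 and 2 described how unequally the members differed in it. It was largest for Itgb6 (18.8, from few counts), Itga11 (7.64), a collagen receptor subunit of fibroblasts, Itgb2 (7.38), Itga5 (5.68), the fibronectin receptor subunit, and Itgam (5.61). Itga5 stood at 16.6 CPM there and at 1.33 to 2.96 CPM in the other 11 libraries. Itgb4 (4.85), the hemidesmosome partner of Itga6, came next. The ratio was 1.37 for Lama1 and 0.945 for Lamc3. The library was the highest for 8 of 8 integrins that bind the RGD motif, 7 of 7 basement membrane receptors and 3 of 4 vascular laminin chains, but for 4 of 7 leukocyte integrins and 2 of 4 other retinal laminins. The 8 members that were not highest in it were Itga4, Itga10, Itgad, Itgae, Lama1, Lama3, Lamc1 and Lamc3, and 0 members had their lowest level in it below all other libraries.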

How the data were processed

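Poly-A RNA of mouse retina was made into stranded libraries and sequenced with 50 single-read cycles. Per the labels, reads were demultiplexed by bcl2fastq 2.20 and aligned by the DRAGEN RNA pipeline to mm39 with NCBI annotation. The pipeline's version and its strand setting are not given in the sources used here, so genes that overlap on opposite strands may share reads. The authors deposited unnormalized counts per gene. The table's 3 repeated sample columns were not used, nor were deposited result tables with fold changes and P values.

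Counts were filtered by filterByExpr, scaled by TMM and tested in R 4.3.3 by edgeR 4.0.16 (quasi-likelihood test, two-sided, prior count 2, Benjamini-Hochberg adjustment over all genes tested), with the 2 compared groups in each fit. Genes were called at an adjusted P up to 0.05 with a log2 fold change beyond 1 in either direction. DESeq2 1.42.0, voom from limma 3.58.1, other scalings and filters, Xist as a covariate, the replicate block and each library left out were alternatives. The fit without both libraries high in Xist was added after seeing the data. The scripts were tested on simulated data. Levels per kb used merged exons of GENCODE on GRCm39. With 3 against 3 libraries, 34 members passed the filter in each comparison.

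The members and lists were chosen with earlier results of these data known. Values in every library are given for members that passed in any comparison, the 3 members with the smallest P in each, and 9 fixed members. Other members, and Gm49368 and Cerkl, were named after their values were seen. Related genes are up to 3 per list and comparison with the smallest P, and Vtn, to complete its count. Replicates of every group differed by more than counting noise (chi-square per gene 12.5 to 344). The labels do not say what the replicate numbers mark. Deviations of same-numbered libraries correlated by 0.134 to 0.182 between APB5+Mino and APB5, and by −0.148 to 0.200 in the other comparisons. These values do not establish a pairing. The main fits used no block, and a block of replicate numbers was an alternative. A member that is counted but neither named nor drawn is not reported here.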

Additional observations from a re-analysis of the deposited data

How the results depend on the processing

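The number of members called in APB5 against IgG was 0, and became 10 when all 12 libraries were fitted with Xist as a covariate and 3 at an unadjusted P with the fold threshold. In APB5+Mino against APB5 the 0 members became 5 with DESeq2, 2 with voom and quality weights, 5 with all 12 libraries in one fit, 6 with the Xist covariate and 8 at an unadjusted P, and ranged from 0 to 3 with each library left out in turn. In APB5+Mino against IgG+Mino it was 2 without a fold threshold. The interaction gave 3 members with the Xist covariate and 1 at an unadjusted P. The cause of these changes was not tested.

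The median log2 fold change of basement membrane receptors in APB5 against IgG ranged from 0.13 to 0.82 with each library left out. In APB5+Mino against APB5 it was −0.39 with voom, −0.34 without both libraries high in Xist and between −1.09 and −0.35 with each library left out, and for leukocyte integrins −0.36, −0.32 and between −1.48 and −0.33. In IgG+Mino against IgG the Xist covariate turned the 2 medians to 0.29 and 0.58, and leaving out each library gave −0.47 to −0.080 (without IgG+Mino replicate 1) for the receptors and −0.37 to 0.03 for the leukocyte integrins. In APB5+Mino against IgG+Mino the covariate turned the receptors' median to −0.21, against 0.01 to 0.21 with each library left out. The log2 fold change of Itgam in IgG+Mino against IgG was reversed to 0.51 by the covariate.

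With the replicate number as a block, which treats same-numbered libraries as pairs, 0 members were called in APB5+Mino against APB5. Itgb2 then had a log2 fold change of −2.39 (adjusted P = 0.101). The block changed no member count in any comparison. The depth limits Itgad, Itgb6 and the leukocyte subunits with under 100 counts.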
